A study of Mus musculus with 32 samples.

Results

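The 10 genes described here are feedback regulators and targets of the ERK pathway: the MAP kinase phosphatases Dusp4, Dusp5 and Dusp6, the Sprouty genes Spry1, Spry2 and Spry4, the Sprouty-related genes Spred1 and Spred2, and the ETS transcription factors Etv4 and Etv5. They were chosen by name, with earlier results of these data known, and all 10 were found among the 25700 genes counted in each of 32 mouse samples. The samples come from tendon assembloids, in which a tail tendon core explant was clamped inside a collagen-1 hydrogel and cultured to day 7. Hydrogels were collected around cores labelled KO (n = 6) and around WT cores (n = 6), and cores were collected from WT assembloids with macrophages (n = 4), from KO and WT assembloids with fibroblasts (n = 4 each) and from KO and WT assembloids with a cell-free hydrogel (n = 4 each). The cores labelled KO were Il-6-/- and the WT cores Il-6+/+, both of the strain B6.129S2-Il6tm1Kopf/J, from adult mice. A core sample pooled explants of 1 mouse. A hydrogel sample pooled 2 hydrogels and held Il-6+/+ fibroblasts from digested Achilles tendons, called progenitors in the labels and mixed from several mice, together with cells that had left the core. All cultures had serum and, by the study's methods, macrophage-colony stimulating factor, a ligand of the receptor tyrosine kinase Csf1r. The labels and methods read here do not say where the added macrophages came from.

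Receptor tyrosine kinases pass growth factor signals through Ras, Raf and MEK to the kinase ERK, and active ERK induces its own inhibitors. Dusp6 removes the activating phosphates from ERK in the cytoplasm, Dusp5 does so in the nucleus, and Dusp4 is a nuclear phosphatase of ERK and of other MAP kinases. Sprouty proteins dampen the signal between receptor and Raf, and Spred proteins bring neurofibromin to Ras and so switch it off. Etv4 and Etv5 are transcription factors whose transcription follows fibroblast growth factor and ERK signals, and in chick somites they relay such signals to the tendon gene scleraxis. Transcripts of these genes are widely read as a record of ERK output, which was not itself measured here.

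The libraries had a total of 20.4 to 59.9 M counts, so that 1 CPM (a count per M counts) stands for 20.4 counts or more, and the members had between 30 and 13434 counts per sample. Il6, the gene targeted in the KO mice, did not run with the labels. It had 7.07, 8.32, 6.38 and 20.2 CPM in cell-free cores labelled KO, against 6.95, 1.84, 11.2 and 3.86 CPM in WT cell-free cores. Beside fibroblasts it had 10.5, 15.2, 16.6 and 36.7 CPM in cores labelled KO, against 6.11, 11.8, 5.00 and 9.28 CPM in WT cores. The counts are per gene and do not show which part of the gene was read, so they do not check the deletion, and KO is used below as the label it is. Markers of macrophages, 15 genes summed, reached 2470 to 33251 CPM in the hydrogels and 5097 to 20427 CPM in the cores, and none of the 15 was at 0 in any sample. KO hydrogel replicate 5 stood apart from the other hydrogels, with 2470 CPM of these markers against 10514 to 33251 CPM. Calls of members that rest on it are given with and without it, and some correlations without it and another sample together. Most other values, such as the calls of marker lists and the likeness to other genes, include it. Markers of tendon fibroblasts, 12 genes summed, reached 26185 to 90426 CPM and those of endothelial cells and skeletal muscle at most 42.4 and 35.9 CPM. In such bulk samples fewer cells of a type and less RNA per cell cannot be told apart.

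The 10 genes did not share 1 pattern over the 7 groups. Levels are given as CPM after TMM scaling, a correction for library composition, over all samples, and they are compared between samples of a gene, not between genes. Dusp4, Dusp5, Dusp6, Spred1 and Etv5 had their lowest mean in WT cores beside macrophages, whereas Spry1, Spry2 and Spred2 had their highest mean in cores labelled KO beside fibroblasts. Spry4, Etv4, Dusp5 and Dusp6 had their highest mean in the KO hydrogels, and Dusp4, Spred1 and Etv5 in the WT hydrogels. The widest span was that of Dusp4, with 36.2 ± 6.53 CPM in WT hydrogels (SD, n = 6) and 4.2 ± 1.03 CPM in WT cores beside macrophages (SD, n = 4), a ratio of 8.62. The narrowest was that of Spred2, with a ratio of 1.31 between its highest and its lowest group mean. When the groups were ordered by their mean, most neighbours overlapped: the ranges lay apart in 5 of 60 neighbouring pairs. Of these, Dusp6 had 2, 1 setting WT cores beside macrophages and 1 setting WT cores beside fibroblasts below the next higher group, and Spred1, Etv4 and Etv5 had 1 each.

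**Figure D1:**
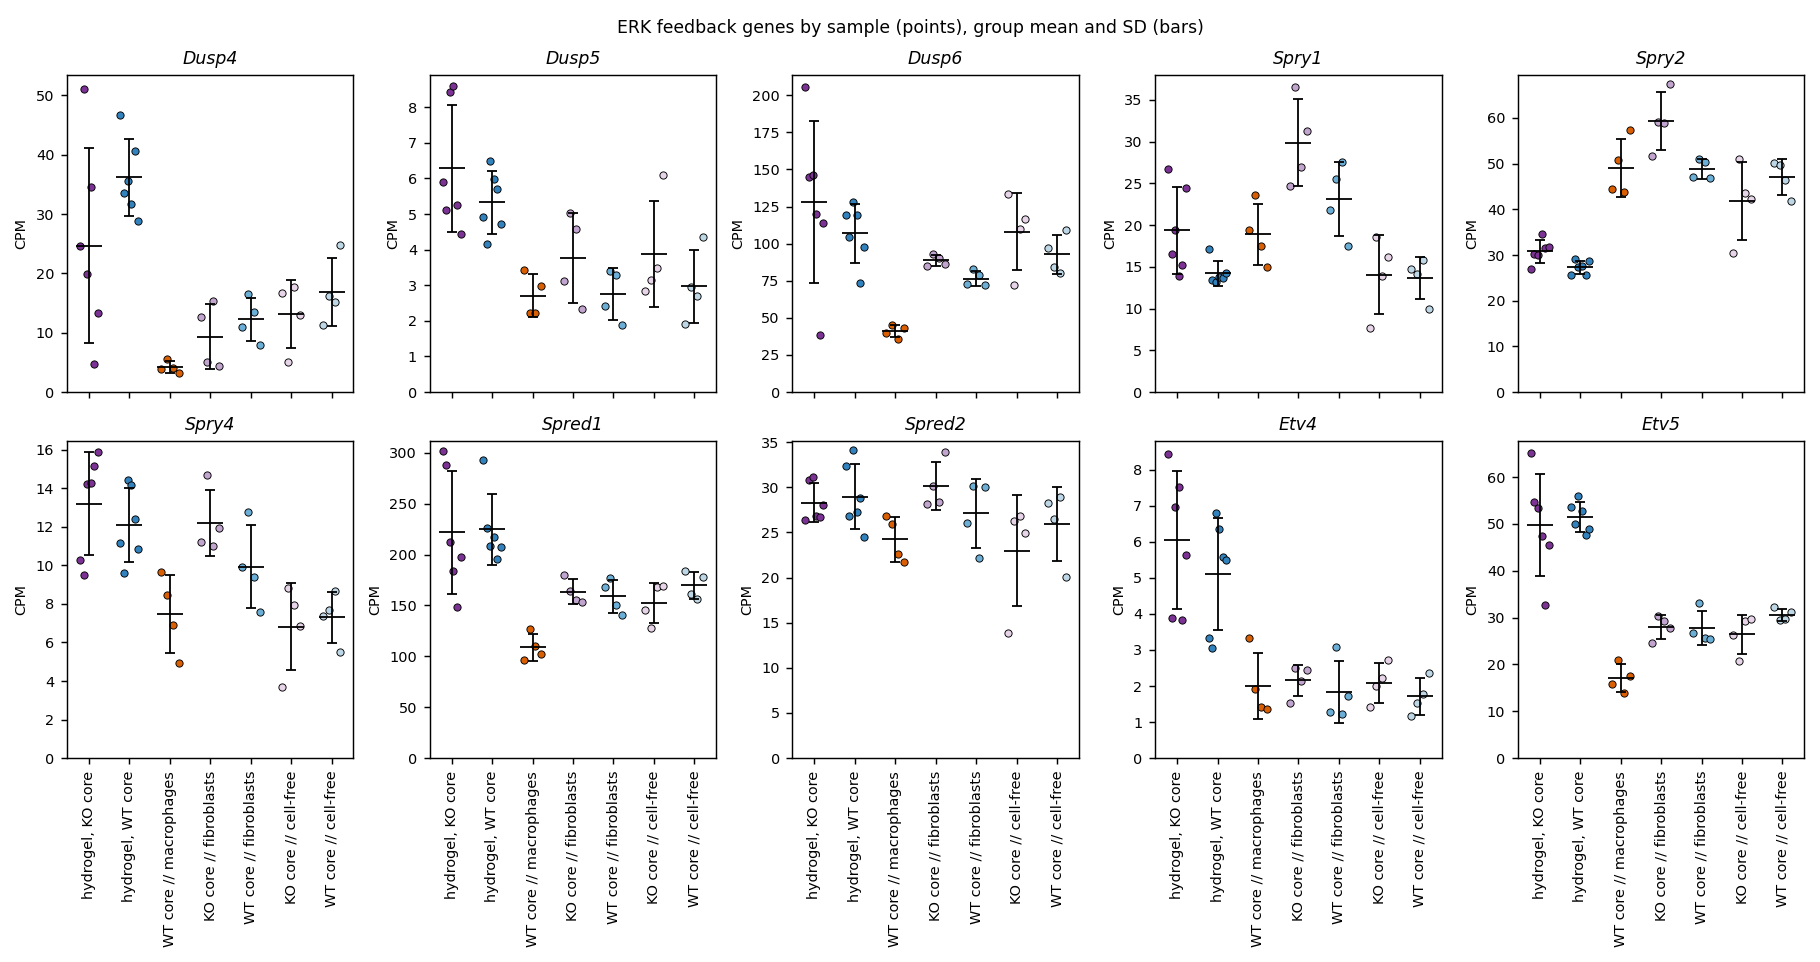
CPM of the 10 genes by sample in the 7 groups, with a panel per gene, each point a sample and the bars the mean ± SD (n = 6 per hydrogel group, n = 4 per core group), on axes from 0. Dusp6 lay at 36.0 to 44.9 CPM in WT cores beside macrophages, under all other core samples, and in the KO hydrogels it ran from 38.7 to 206 CPM.

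Promoters are shown for 4 members, Dusp6 and Etv5 (lower beside macrophages), Spry1 (higher beside fibroblasts) and Dusp5 (the member whose window held a motif more than once), as 300-base windows, 250 bases before to 50 after the start, from RefSeq's annotation of GRCm38.p6 (the counts themselves were made on GRCm39 and hold no coordinates). RefSeq windows matched 7 of the 10 members, with 2 for Etv5, of which 1 is shown. Each window was searched on both strands for the ETS core CCGGAA, the AP-1 site TGANTCA, the cAMP response element TGACGTCA and the CArG box of the serum response element, none of which contains another, and matches are in capitals.
Dusp6, chr10:99262981-99263280, plus strand: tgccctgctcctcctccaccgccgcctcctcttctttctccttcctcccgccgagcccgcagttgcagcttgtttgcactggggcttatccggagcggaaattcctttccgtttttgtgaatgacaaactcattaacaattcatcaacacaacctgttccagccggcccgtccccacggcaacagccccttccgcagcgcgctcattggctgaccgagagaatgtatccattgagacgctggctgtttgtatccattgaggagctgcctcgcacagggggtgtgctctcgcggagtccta
Etv5, chr16:22439521-22439820, minus strand: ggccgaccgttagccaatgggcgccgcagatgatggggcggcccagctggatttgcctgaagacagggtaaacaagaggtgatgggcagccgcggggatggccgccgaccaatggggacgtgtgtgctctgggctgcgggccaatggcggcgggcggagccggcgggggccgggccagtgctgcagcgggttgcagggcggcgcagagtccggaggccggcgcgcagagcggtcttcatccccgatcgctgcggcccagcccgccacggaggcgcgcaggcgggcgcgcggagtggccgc
Spry1, chr3:37639697-37639996, plus strand: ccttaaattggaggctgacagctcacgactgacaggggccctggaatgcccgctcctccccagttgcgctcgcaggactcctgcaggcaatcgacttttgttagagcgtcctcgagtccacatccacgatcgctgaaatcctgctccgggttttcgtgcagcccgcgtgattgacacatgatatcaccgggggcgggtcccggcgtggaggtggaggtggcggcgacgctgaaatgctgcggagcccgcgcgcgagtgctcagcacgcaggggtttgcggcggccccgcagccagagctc
Dusp5, chr19:53528895-53529194, plus strand: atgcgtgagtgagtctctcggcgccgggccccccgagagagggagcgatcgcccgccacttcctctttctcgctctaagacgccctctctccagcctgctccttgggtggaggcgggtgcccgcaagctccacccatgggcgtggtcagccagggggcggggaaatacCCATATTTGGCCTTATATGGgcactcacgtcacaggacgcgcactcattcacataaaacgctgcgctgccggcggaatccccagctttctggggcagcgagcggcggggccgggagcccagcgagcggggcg
The capitals in Dusp5 are a pair of adjacent CArG boxes, starting 82 and 72 bases before the start, a motif that 1.63% of all 32851 windows hold. Neither Dusp6, Etv5 nor Spry1 had a match in its window, and outside Dusp5 the only match among the members was an ETS core of Spry2, 33 bases after the start, a motif found in 14.9% of all windows. The AP-1 site was found in 7.81% and the cAMP response element in 1.79% of windows. These are matches of letters, not sites shown to be bound.

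The labels name WT cores beside macrophages, a group that asks what macrophages in the hydrogel do to the core. Set against WT cores beside a cell-free hydrogel, Dusp4, Dusp6, Spred1 and Etv5 fell, and the Sprouty genes did not fall with them. With an adjusted p under 0.05 and a log2 fold change beyond 0.5 as the rule for a call, 4 of 10 members were called, all lower, where 4.6% of all genes were called in either direction and 3.85% lower. The groups did not overlap for these 4 genes, which was so for 14.3% of all genes.

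Dusp6, the cytoplasmic ERK phosphatase, had 39.7, 44.9, 36.0 and 43.3 CPM in WT cores beside macrophages, against 97.4, 84.1, 80.01 and 110 CPM in WT cell-free cores. Every core beside macrophages lay below every cell-free core, with a log2 fold change of -1.15 (SE 0.11, adjusted p of 0.00122 from edgeR). Dusp4 had 3.96, 5.62, 4.05 and 3.16 CPM beside macrophages, against 11.2, 16.2, 15.2 and 24.8 CPM in cell-free cores. It was the member with the largest fall, of 1.96 on the log2 scale (SE 0.24, adjusted p = 0.0033). Etv5, the ETS factor, had 15.8, 20.9, 13.9 and 17.5 CPM beside macrophages, against 32.2, 29.4, 29.6 and 31.2 CPM in cell-free cores, again with no overlap (log2 fold change -0.81, SE 0.11, adjusted p = 0.00457). Spred1, the Ras inhibitor, had 96.6, 127, 110 and 102 CPM beside macrophages, against 184, 161, 156 and 178 CPM in cell-free cores, the smallest of the 4 falls (log2 fold change -0.61, SE 0.10, adjusted p = 0.00877). The exact permutation test (two-sided) gave p = 0.0286 for each of the 4, the smallest that 4 against 4 samples allow. All 4 were called without any 1 of the 8 samples, with a fall of at least 1.05 for Dusp6 and 1.71 for Dusp4 on the log2 scale.

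The other 6 members were not called. Etv4, the close relative of Etv5, had 3.32, 1.92, 1.42 and 1.35 CPM beside macrophages, against 1.17, 1.54, 1.77 and 2.37 CPM in cell-free cores, and its interval of the log2 fold change was -0.48 to 1.01. Dusp5 had a log2 fold change of -0.10 (95% interval -0.69 to 0.48), so the nuclear phosphatases Dusp4 and Dusp5 differed in their call, a difference that was not itself tested. The intervals of Spry2 (-0.13 to 0.32), Spry4 (-0.42 to 0.57) and Spred2 (-0.37 to 0.24) left out a fall of the size of Dusp6. Spry1 had 19.4, 23.7, 17.6 and 14.99 CPM beside macrophages, against 14.7, 14.2, 15.8 and 10.0 CPM in cell-free cores (log2 fold change 0.50, SE 0.17, adjusted p = 0.127). Replicate numbers were taken to pair these samples from the likeness of same-numbered libraries, as the labels do not state a pairing. In a fit with the replicate block Spry1 passed the rule (log2 fold change 0.50, adjusted p = 0.0351), with 6.38% of all genes called in that fit.

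Macrophage markers were not higher in the cores beside macrophages. Their sum was 5097 to 12431 CPM (median 7763) beside macrophages and 9969 to 13744 CPM (median 12451) in cell-free cores, 11 of 15 markers had a negative fold change and Itgam and Cd14 were called lower. Across the cores beside macrophages Dusp6 ran from 36.0 to 44.9 CPM and Etv5 from 13.9 to 20.9 CPM. With the marker level as a covariate, added after the data were seen, Dusp6 (log2 fold change -1.03, adjusted p = 0.0262) and Dusp4 (-2.03, adjusted p = 0.0481) were called, and Spred1 (-0.56, adjusted p = 0.0919) and Etv5 (-0.70, adjusted p = 0.0688) were not. Cell cycle genes moved in the same direction, with 8 of 10 called lower and sums of 98.6 to 182 CPM beside macrophages and 245 to 598 CPM in cell-free cores. Their part in the result was not tested, nor was that of macrophage content beyond the covariate fit.

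Against WT cores beside fibroblasts, the same cores beside macrophages again had less Dusp4, Dusp6 and Etv5. Here 3 of 10 members were called, all lower, where 10.8% of all genes were called and 5.5% were lower. Dusp6 had 72.7, 82.9, 78.6 and 71.9 CPM in WT cores beside fibroblasts, all above the values beside macrophages given above (log2 fold change -0.82, SE 0.08, adjusted p = 7.17e-04). Dusp4 had 11.0, 16.6, 13.4 and 7.94 CPM beside fibroblasts, and its lowest core there also lay above its highest beside macrophages (log2 fold change -1.45, SE 0.23, adjusted p = 0.00462). Etv5 fell by 0.63 on the log2 scale (SE 0.13, adjusted p = 0.0122). Spred1 had a fold change of -0.47 (SE 0.10, adjusted p = 0.0143), just under the fold threshold, and lay below every core beside fibroblasts, so that 4 members did not overlap, where 27.9% of all genes did not. Spred1 passed the fold threshold without WT macrophage replicate 2 (-0.54) or WT fibroblast replicate 3 (-0.50) or 4 (-0.52). The cores beside macrophages are shared by this comparison and the one before. Cell cycle genes were lower here too, 8 of 10 called (98.6 to 182 CPM beside macrophages and 209 to 309 CPM beside fibroblasts), and 9 of 12 tendon fibroblast markers had a negative fold change with 2 called lower (26185 to 49352 CPM and 43881 to 79083 CPM). Of the macrophage markers 2 of 15 were called higher and 2 lower. Their part was not tested.

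**Figure D2:**
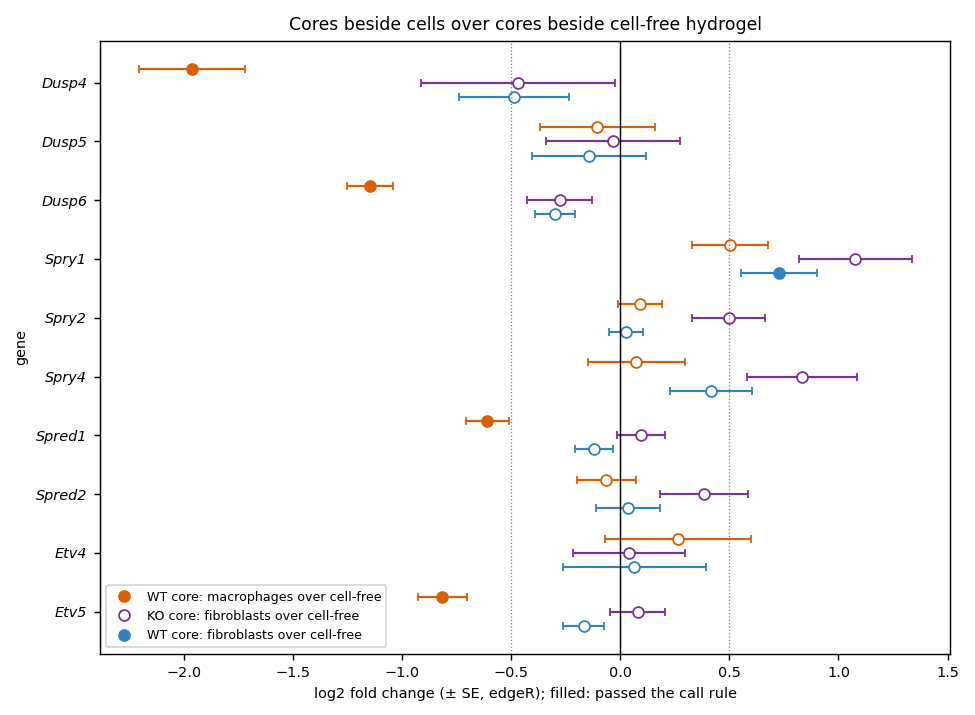
Log2 fold change (± SE, edgeR) of the 10 genes in cores beside macrophages or fibroblasts over cores beside a cell-free hydrogel, with filled points for calls and dotted lines at 0.5 in either direction. Dusp4, Dusp6, Spred1 and Etv5 lay at -1.96, -1.15, -0.61 and -0.81 for macrophages, and Spry1 was highest for fibroblasts, at 1.08 in cores labelled KO and 0.73 in WT cores.

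The comparison of cores beside fibroblasts with cell-free cores asks what the fibroblasts in the hydrogel change in the core. In WT cores 1 of 10 members was called, Spry1, where 2.61% of all genes were called and 1.51% were higher. Spry1, which restrains signals of growth factor receptors, had 21.8, 25.5, 27.6 and 17.5 CPM in WT cores beside fibroblasts, against 14.7, 14.2, 15.8 and 10.0 CPM in WT cell-free cores. The groups did not overlap, as for 12.3% of all genes, and Spry1 rose by 0.73 on the log2 scale (SE 0.17, adjusted p = 0.0478; exact permutation test, two-sided, p = 0.0286). The adjusted p lay just under the threshold. It was over it without WT cell-free replicate 1 or 2 or WT fibroblast replicate 1, 2 or 3 (up to 0.145), with all core groups in 1 fit (0.107) and with the macrophage marker level as a covariate (0.433, with no gene of 16188 called), while the log2 fold change stayed between 0.64 and 0.77 in these fits. The other Sprouty genes were not called, with log2 fold changes of 0.03 for Spry2 and 0.42 for Spry4 (adjusted p = 0.88 and 0.235). Other lists moved in the same comparison: 11 of 12 tendon fibroblast markers had a positive fold change (2 called higher, sums of 43881 to 79083 CPM beside fibroblasts and 36492 to 60558 CPM in cell-free cores), 12 of 15 macrophage markers a negative one (1 called lower, 9350 to 10146 CPM and 9969 to 13744 CPM) and 10 of 10 cell cycle genes a negative one (none called). Their part in the rise of Spry1 was not tested.

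In cores labelled KO the values pointed the same way without passing the rule. Spry1 had 24.7, 36.6, 27.0 and 31.2 CPM beside fibroblasts, against 7.62, 18.6, 13.9 and 16.2 CPM in cell-free cores, with no overlap (log2 fold change 1.08, SE 0.26, adjusted p = 0.109). Spry4 had 11.2, 14.7, 11.0 and 11.9 CPM beside fibroblasts, against 3.70, 8.84, 7.93 and 6.83 CPM in cell-free cores, and also did not overlap (log2 fold change 0.83, SE 0.25, adjusted p = 0.204). Spry2, with 51.7, 59.1, 59.0 and 67.4 CPM against 30.4, 51.0, 43.7 and 42.2 CPM, and Spred2 were the other members whose groups lay apart, which made 4 of 10, where 6.28% of all genes did not overlap. None was called with edgeR, where 0.432% of all genes were called, 3 members had an unadjusted p under 0.05, and DESeq2 called Spry1 and Spry4. Here too replicate numbers were taken to pair the samples, from the likeness of these same libraries, as the labels do not state a pairing. The WT cores have the same codes in their titles and were not taken as pairs. With the replicate block Spry1 (log2 fold change 1.14, adjusted p = 0.00879) and Spry4 (0.89, adjusted p = 0.0497) were called, with 2.56% of all genes. Without cell-free KO replicate 2 Spry1 was called as well (1.27, adjusted p = 0.0343). Cell-free KO replicate 1 had the lowest Spry1, Spry2, Spry4 and Spred2 of its group and, with 20427 CPM, the highest macrophage marker sum of all cores. With the marker level as a covariate Spry1 was called (log2 fold change 0.99, adjusted p = 0.0452).

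Dusp6 had 85.3, 92.8, 90.5 and 86.4 CPM in cores labelled KO beside fibroblasts, against 133, 71.9, 110 and 117 CPM in cell-free cores labelled KO. The cell-free values spread on both sides of the values beside fibroblasts (log2 fold change -0.28, 95% interval -0.61 to 0.06). In WT cores the fold change was -0.30 (95% interval -0.51 to -0.10, adjusted p = 0.0947). Whether the effect of fibroblasts differed between cores labelled KO and WT cores was tested as an interaction. No member and 0% of all genes passed at an adjusted p under 0.05, with 1 member, Spry2, at an unadjusted p under 0.05 and no member called by DESeq2. Spry2 had the largest difference of log2 fold changes, 0.46 (95% interval 0.06 to 0.87, adjusted p = 0.985), and that of Spry1 was 0.35 (-0.36 to 1.05).

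The comparison of cores labelled KO with WT cores asks what IL-6 from the core changes. Beside fibroblasts, 9 of 10 members had a positive log2 fold change, with a median of 0.23 where that of all genes was 0.000387, and none passed the study's rule of an unadjusted p under 0.05 and a log2 fold change beyond 0.5, where 2.44% of all genes did. DESeq2 called none either. In the same comparison 11 of 12 tendon fibroblast markers had a negative fold change (median -0.20, 1 called lower, sums of 37799 to 66180 CPM in cores labelled KO and 43881 to 79083 CPM in WT cores), and their part was not tested. Under that p were Dusp6, Spry2 and Spry1. Dusp6 had 85.3 to 92.8 CPM in cores labelled KO, against 71.9 to 82.9 CPM in WT cores, without overlap (log2 fold change 0.23, 95% interval 0.09 to 0.37, adjusted p = 0.457). Spry2 had 51.7, 59.1, 59.0 and 67.4 CPM in cores labelled KO, against 47.0, 51.1, 50.3 and 47.0 CPM in WT cores, likewise without overlap (log2 fold change 0.29, 95% interval 0.11 to 0.48, adjusted p = 0.457). These were 2 of 10 members without overlap, where 4.63% of all genes had none. Dusp4 was the exception in direction, at 12.6, 5.13, 15.3 and 4.40 CPM in cores labelled KO, against 11.0, 16.6, 13.4 and 7.94 CPM in WT cores, and its groups overlapped widely. Without WT fibroblast replicate 2 Etv4 passed the rule (log2 fold change 0.61), and without KO fibroblast replicate 4 Dusp5 did (0.64).

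In cell-free cores no member was called, 0% of all genes were, no member had an unadjusted p under 0.05 in edgeR, and DESeq2 called none. The 95% intervals of the members reached down to -1.14 for Dusp4 and up to 1.05 for Dusp5 on the log2 scale, and were narrower for Spred1 (-0.41 to 0.09), Etv5 (-0.48 to 0.04), Spry2 (-0.54 to 0.19) and Dusp6 (-0.16 to 0.58). Between hydrogels around cores labelled KO and hydrogels around WT cores, whose seeded fibroblasts were Il-6+/+ in both, no member was called either, where 0.755% of all genes were, and DESeq2 called none. Spry1 and Spry2 had an unadjusted p under 0.05 with fold changes under the threshold. Spry1 had 13.9, 18.0 and 26.7 CPM as lowest, median and highest value around cores labelled KO, against 13.1, 13.7 and 17.2 CPM around WT cores (log2 fold change 0.42, 95% interval 0.07 to 0.76, exact permutation test p = 0.0303). Spry2 had 26.9, 30.9 and 34.5 CPM around cores labelled KO, against 25.6, 27.4 and 29.1 CPM around WT cores (log2 fold change 0.14, 95% interval 0.01 to 0.28, exact permutation test p = 0.0152). Both pairs of groups overlapped, and their adjusted p was 0.9997. Dusp4 had 24.6, 51.1, 19.9, 34.6, 4.72 and 13.3 CPM around cores labelled KO, against 46.7, 33.6, 35.6, 31.7, 40.6 and 28.8 CPM around WT cores. Its values around cores labelled KO spread far more than those around WT cores, and the fold change of -0.56 (95% interval -1.47 to 0.35) passed the rule only without KO hydrogel replicate 2, the highest (-0.92). Without KO hydrogel replicate 5 no member was called.

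Set against the cores of fibroblast assembloids, the hydrogels had more Etv4 and Etv5 and less Spry1 and Spry2, and in WT assembloids more Dusp4 and Dusp5. Not every hydrogel had a core sample with the same codes in its title, and the main fit took no pairs. In WT assembloids 6 of 10 members were called, 4 higher and 2 lower, and in assembloids with a core labelled KO 4 of 10, 2 higher and 2 lower. Of all genes 42.8% were called in WT assembloids (18.1% higher and 24.7% lower) and 41.6% in assembloids with a core labelled KO (17% higher and 24.6% lower), so a call is not particular to the members. Hydrogels and cores did not overlap for 6 of 10 members in WT and 3 of 10 in KO assembloids, where 56.8% and 45.1% of all genes did not. The compartments differ in tissue of origin (Achilles tendon cells with core cells, and tail tendon), which cannot be told apart from their place in the assembloid.

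Etv5 had 47.6, 51.4 and 56.0 CPM (lowest, median and highest) in WT hydrogels, against 26.7, 33.1, 25.5 and 25.4 CPM in WT cores beside fibroblasts, and did not overlap (log2 fold change 0.81, SE 0.08, adjusted p = 5.97e-06). In KO assembloids Etv5 had 32.6, 50.4 and 65.2 CPM in hydrogels, against 24.5, 30.3, 29.3 and 27.7 CPM in cores (0.73, SE 0.19, adjusted p = 0.00682). Etv4 was the member with the highest fold change in KO assembloids, 1.39 in both KO and WT assembloids, with 3.83 to 8.44 CPM in KO hydrogels, against 1.53 to 2.50 CPM in KO cores. Both ETS genes were thus higher in the hydrogel in each kind of assembloid. Dusp4 had 28.8 to 46.7 CPM in WT hydrogels, against 7.94 to 16.6 CPM in WT cores (log2 fold change 1.48, SE 0.19, adjusted p = 3.5e-05). In KO assembloids Dusp4 had 4.72 to 51.1 CPM in hydrogels, against 4.40 to 15.3 CPM in cores, and its fold change of 1.29 (SE 0.62, adjusted p = 0.0973) did not pass. Dusp5 had 4.15 to 6.50 CPM in WT hydrogels, against 1.88 to 3.39 CPM in WT cores (0.87, SE 0.18, adjusted p = 0.00119). In KO assembloids Dusp5 had a fold change of 0.62 (adjusted p = 0.0784). Hydrogels and cores with the same codes in their titles were taken to share a core mouse. With that replicate block Dusp4 (1.57, adjusted p = 8.96e-05) and Dusp5 (0.71, adjusted p = 0.00115) were called in KO assembloids too, with 46.4% of all genes.

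The Sprouty genes went the other way. Spry2 had 25.6 to 29.1 CPM in WT hydrogels, against 47.0 to 51.1 CPM in WT cores (log2 fold change -0.92, SE 0.05, adjusted p = 2.02e-07). In KO assembloids Spry2 had 26.9 to 34.5 CPM in hydrogels, against 51.7 to 67.4 CPM in cores (-1.06, SE 0.09, adjusted p = 1.58e-05). Spry1 fell by 0.78 in WT and by 0.73 in KO assembloids on the log2 scale (adjusted p = 1.09e-04 and 0.00992), with overlap in KO assembloids only. The third Sprouty gene did not share this: Spry4 had 95% intervals of -0.13 to 0.53 in WT and -0.34 to 0.32 in KO assembloids. Spred2 was close to 0 in WT assembloids (-0.24 to 0.26), and Spred1 had a fold change of 0.42 there (adjusted p = 0.00578), under the fold threshold. Dusp6 had 73.4 to 128 CPM in WT hydrogels, against 71.9 to 82.9 CPM in WT cores (0.40, SE 0.13, adjusted p = 0.0149), also under it, and was called without WT hydrogel replicate 5 (0.50). In KO assembloids its hydrogel values ran from 38.7 to 206 CPM, against 85.3 to 92.8 CPM in cores. Without KO hydrogel replicate 5, Dusp6 (0.64, adjusted p = 0.00645), Dusp4 (1.52) and Dusp5 (0.69) were called in KO assembloids, which made 7 of 10, with 7453 of 15965 genes called in that fit, and without replicate 6 Dusp5 was called (0.74). Macrophage markers moved with the compartment: 14 of 15 had a positive fold change in both kinds of assembloid, with a median of 0.55 in KO and 0.51 in WT assembloids, and 0 of 15 were called in KO and 8 of 15 in WT assembloids. The sum was 2470 to 33251 CPM in KO hydrogels, against 8281 to 10168 CPM in KO cores, and 10514 to 19181 CPM in WT hydrogels, against 9350 to 10146 CPM in WT cores. With their level as a covariate the fold change of Dusp6 was -0.18 and that of Spred1 0.07 in WT assembloids, and that of Etv5 0.67 (adjusted p = 0.00393). The sums of WT hydrogels and WT cores did not overlap, so this fit cannot separate marker level from compartment. Cell cycle genes were called higher too, 10 of 10 in WT and 9 of 10 in KO assembloids. Of tendon fibroblast markers 7 of 12 were called lower in WT and 5 of 12 in KO assembloids (median log2 fold change -1.09 and -0.62), of 5 Schwann cell markers tested 4 were called higher in each, and of 7 smooth muscle and pericyte markers 4 were called higher in WT and 3 in KO assembloids. The part of these lists was not tested.

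**Figure D3:**
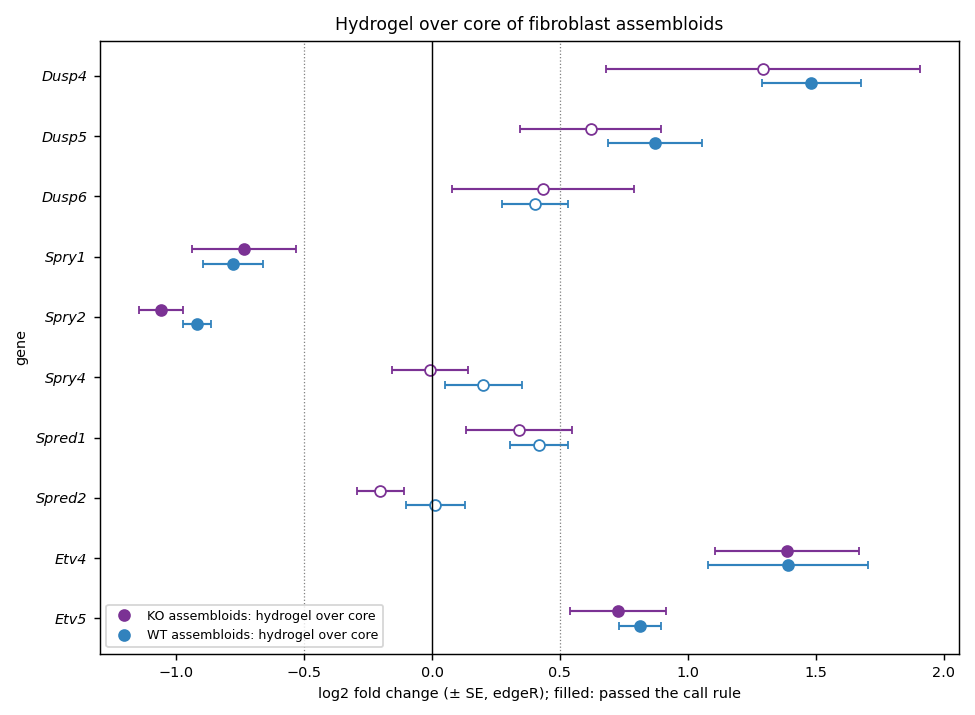
Log2 fold change (± SE, edgeR) of the 10 genes in hydrogels over cores of fibroblast assembloids with a core labelled KO (n = 6 and 4) and with a WT core (n = 6 and 4), with filled points for calls and dotted lines at 0.5 in either direction. Etv4 and Etv5 lay above 0 and Spry1 and Spry2 below 0 in both, and Dusp4 lay at 1.29 and 1.48.

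The rest of the pathway was followed in 6 lists of 112 genes: the Ras to ERK cascade, growth factor ligands, receptor tyrosine kinases, other MAP kinase phosphatases, other negative regulators, and transcripts known as outputs of ERK. In WT cores beside macrophages, against cell-free cores, no gene of the 24 of the cascade was called. Among the 20 output transcripts Ccnd1, which encodes cyclin D1 (-2.05), Plaur, the urokinase receptor (-1.74), and Etv1, the relative of Etv4 and Etv5 (-0.98), were lower, and none was higher. Of all genes 3.85% were called lower there. Of 22 ligands tested, the epidermal growth factor receptor ligand Areg (-3.30) and the platelet-derived growth factor gene Pdgfb (-0.80) were among the calls as lower, and Igf2 (1.12), an insulin-like growth factor, as higher. The receptor list had no call, and Ptpn6, a phosphatase of blood cells, was the only call among 14 other negative regulators (-0.85). The output list as a whole was not lower, with a median log2 fold change of -0.00624 where that of all genes was 0.00504. Against WT cores beside fibroblasts the output transcripts Ccnd1 (-1.54), Etv1 (-0.73) and Plaur (-1.12) were lower again, with 4 of 20 called lower and 0 higher, and of the cascade Gab1 (0.57) was higher and Map2k1 (-0.56) lower. In that comparison 5.5% of all genes were called lower.

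In WT cores beside fibroblasts, against cell-free cores, the ligand Hbegf (1.17, adjusted p = 0.0159) and the cytokine signal inhibitor Socs3 (0.56, adjusted p = 0.0348) were higher beside Spry1, the receptor Csf1r was lower (-0.61, adjusted p = 0.0415), and no output transcript was called. In cores labelled KO none of the 6 lists had a call, with a median of 0.32 over 22 ligands and of 0.07 over 20 output transcripts. Between cores labelled KO and WT cores beside fibroblasts, by the unadjusted rule, 5 of 20 output transcripts were higher and 0 lower, with Fos (0.90), Ier2 (0.84) and Ier3 (0.77) having the lowest p, and their median was 0.43. The adjusted p of Fos was 0.0723 and those of the others were 0.457 or more. Dusp1 (0.64) and Dusp9 (0.75) were higher among 6 other MAP kinase phosphatases. By the same rule 2.44% of all genes were called in either direction. Around cores labelled KO, the hydrogels had 2 of 20 output transcripts higher, Ier3 (0.65) and Egr1 (0.51), and 1 of 24 ligands, Ereg (0.79), again by the unadjusted rule. Of all genes 0.755% passed it, and 0 of 15227 genes were called with an adjusted p under 0.05. In hydrogels against cores, 9 of 20 output transcripts were higher and 0 lower in WT assembloids, led by Ccnd1 (1.06), Plaur (1.32) and Junb (0.73), and 5 were higher and 1 lower in KO assembloids. Of all genes 18.1% were higher and 24.7% lower in WT assembloids, and 17% and 24.6% in KO assembloids. Of the other negative regulators, Spred3 was lower in both (-0.73 in WT and -0.999 in KO assembloids).

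The level of 3 members followed that of the macrophage markers from hydrogel to hydrogel. The relation was computed over samples after each group's mean was taken away, once over the 12 hydrogels and once over the 20 cores, for 20 tests in all, and was chosen after the data were seen. Samples were permuted within groups, without regard to a number in the titles, called the run code here. The labels do not say what it stands for. In order of run code, marker sums of KO hydrogels were 33251 and 20228, 17816 and 13228, and 2470 and 13202.5 CPM. Those of WT hydrogels were 19181 and 17342, 16252 and 16864.5, and 10514 and 14375.5 CPM. The part of this code was not tested. In hydrogels Dusp6 had r = 0.98 (rho = 0.92, permutation p = 0.0002, adjusted 0.00133), Etv5 r = 0.97 (rho = 0.94, permutation p = 0.0002, adjusted 0.00133) and Spred1 r = 0.83 (rho = 0.93, permutation p = 1e-05, the smallest that 100000 permutations can give, adjusted 0.0002). KO hydrogel replicates 1 and 5, with the highest and the lowest marker sum, lay farthest out: replicate 1 had 206 CPM of Dusp6 and 65.2 CPM of Etv5, and replicate 5 had 38.7 and 32.6 CPM. Without this pair r was 0.90 for Dusp6, 0.81 for Etv5 and 0.73 for Spred1. Dusp4 had r = 0.78 (rho = 0.60, permutation p = 0.0651, adjusted 0.186), which was 0.43 without them and so rests on these samples. Spry1, Spry2, Spry4, Spred2, Dusp5 and Etv4 had adjusted p-values of 0.362 or more in hydrogels.

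In cores Dusp6 had r = 0.77 with the markers (rho = 0.78, permutation p = 0.00785, adjusted 0.0392) and Spry4 r = -0.73 (rho = -0.50, permutation p = 0.0109, adjusted 0.0436). Both weakened without cell-free KO replicates 1 and 2, the farthest samples, to 0.48 and -0.53, and rest largely on them. Etv5 and Spred1 had r = 0.43 and 0.34 in cores, with adjusted p-values of 0.383 and 0.455. Both measures of each relation come from the same libraries and the same scaling, and whether macrophages transcribe these genes was not tested.

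**Figure D4:**
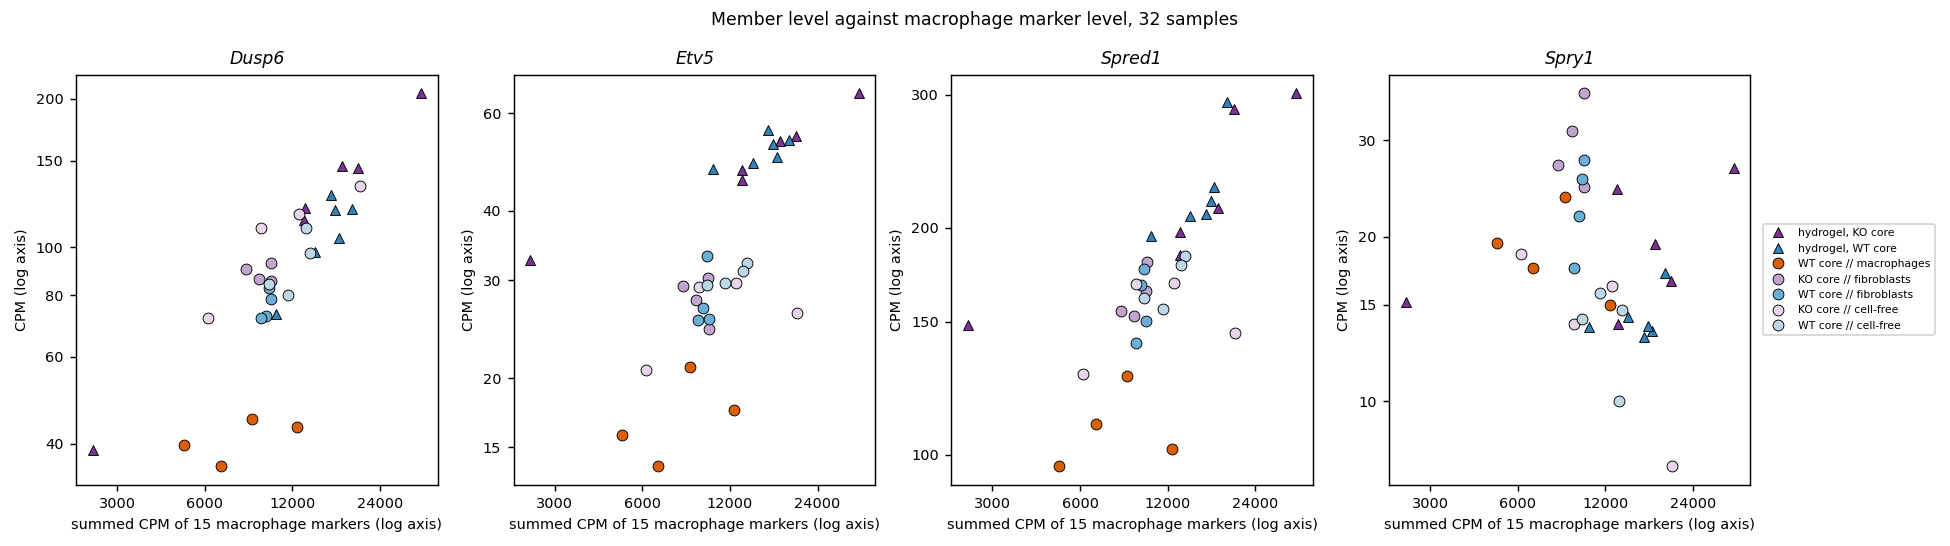
CPM of Dusp6, Etv5, Spred1 and Spry1 against the summed CPM of 15 macrophage markers in all 32 samples, both on log axes, with triangles for hydrogels and circles for cores. In hydrogels Dusp6 and Etv5 climbed with the markers (r = 0.98 and 0.97, n = 12). In the cores beside macrophages Dusp6 lay at 36.0 to 44.9 CPM and the marker sums at 5097 to 12431 CPM.

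Over 90 tests of member pairs, made the same way, Dusp6 and Etv5 went together in hydrogels (r = 0.97, rho = 0.98, permutation p = 1e-05, adjusted 9e-04, 0.87 without the 2 farthest samples, n = 12), and in cores r was 0.70 (rho = 0.76, permutation p = 0.00185, adjusted 0.0555, n = 20). Spry1 and Spry4 went together in cores (r = 0.87, rho = 0.77, permutation p = 2.3e-04, adjusted 0.0103, 0.77 without the 2 farthest samples). These were the 2 pairs with an adjusted p under 0.05. In hydrogels Spred1 had r = 0.83 with Etv5 (rho = 0.87, permutation p = 0.00248, adjusted 0.0558) and r = 0.78 with Dusp6 (rho = 0.79, permutation p = 0.00357, adjusted 0.0643). The first was 0.74 without KO hydrogel replicates 1 and 2, and the second 0.51 without replicates 1 and 5. The 2 samples left out were those farthest out in 1 gene of the pair, so replicate 5 stays in the 0.74. Of 11991 other named genes, those most like Dusp6 over all 32 samples after removal of group means were Tmem206 (r = 0.96), Lmo2 (r = 0.96) and Anxa3 (r = 0.96). Spred1 was most like Edem1 (r = 0.97), Rbpj (r = 0.94) and Scarb1 (r = 0.92), and Dusp4 most like Oas3 (r = 0.88), Frrs1 (r = 0.88) and Ddx58 (r = 0.87). For Spry1 the closest were Sh3bp4 (r = 0.76), Lpgat1 (r = 0.75) and Socs3 (r = 0.73), the last a gene that was also higher in WT cores beside fibroblasts. Etv5 was most like Uhmk1 (r = 0.89), Spry4 like Ebf4 (r = 0.85), Spred2 like Tcp11l1 (r = 0.86), Dusp5 like Ap1ar (r = 0.82), Spry2 like Rbm15b (r = 0.78) and Etv4 like Slc6a8 (r = 0.76). These values describe likeness over libraries that were scaled together and in part share a run code, and no p is given for them. They were not recomputed without KO hydrogel replicate 5. Dusp6 had an SD of 0.82 on the log2 scale in KO hydrogels and of 0.06 to 0.38 in the other groups, so KO hydrogels weigh most in its values.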

How the data were processed

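RNA sequencing was used on 32 samples in 7 groups taken from the labels. The authors removed ribosomal RNA, made stranded libraries for a NovaSeq and ran kallisto in the SUSHI framework to estimate counts for each gene. Processing notes of the submitters list kallisto 0.46.1, GRCm39 and DESeq2, and no annotation release was found in them. The deposited values are expected counts, written as whole numbers and not normalized, and were used as such. By the study's methods each core sample came from 1 mouse, and RNA of low integrity was accepted. Gene symbols came from a table for GRCm38, which named 25587 of 25700 identifiers and served for names only.

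Totals were 20.4 to 59.9 M counts per sample. Only the groups compared entered each fit: edgeR (version 4.0.16, R version 4.3.3) with filterByExpr, TMM and the quasi-likelihood F-test, with Benjamini-Hochberg adjustment over all 15227 to 16772 genes tested. Standard errors were taken as the size of the log2 fold change over the root of its F statistic. Calls followed the study's rule in the 3 comparisons it made (an unadjusted p under 0.05 between KO and WT hydrogels and between KO and WT cores beside fibroblasts, an adjusted p under 0.05 between WT cores beside fibroblasts and cell-free cores), each with a log2 fold change beyond 0.5, and the adjusted rule was used for the rest. Single members were also compared with an exact permutation test (two-sided). Titles hold a number, called the run code here, and an N code, and the labels do not say what they stand for. Replicate numbers, or for hydrogel and core both title codes, were taken to pair samples where every same-numbered pair had a residual correlation over 0.1. This was so in 6 of 9 comparisons, and for hydrogel and core a shared core mouse was taken to lie behind it. The choice was made on the same libraries that were then tested. Samples paired in this way also share a run code. The fits were tested on simulated counts.

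All members were named, and of each other list up to 3 called genes with the lowest p, apart from an item that is not reported here. The members and lists were chosen with earlier results of these data known. Results were recomputed with DESeq2 (version 1.42.0), with RLE factors, no filter, a stricter filter (10 counts or more in all samples), no fold threshold, the other p threshold, replicate or run code blocks, all groups in 1 fit, each sample left out, and, added after seeing the data, the macrophage marker level as a covariate. Promoters are RefSeq windows of GRCm38.p6. Intervals cover the spread between samples as edgeR models it.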

Additional observations from a re-analysis of the deposited data

Results flagged for a closer look

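Within each group of 4 or 6 samples, the gap between an extreme sample and its nearest neighbour was set against the group's range with Dixon's test for each member. Chance flags about 1 in 20 groups, and 4 of 70 stood out. Spry1 was at 17.2 CPM in WT hydrogel replicate 1, above 13.1 to 14.2 CPM in the other WT hydrogels. Spred1 was at 293 CPM in the same sample, above 195 to 226 CPM in the others. Spred2 was at 13.8 CPM in cell-free KO core replicate 1, below 25.0 to 26.8 CPM in the rest of its group, and that core also had the highest macrophage marker sum of all cores, 20427 CPM. Etv5 was at 33.1 CPM in WT core replicate 2 beside fibroblasts, above 25.4 to 26.7 CPM in the rest. The effect of fibroblasts did not pass a test of difference between cores labelled KO and WT cores for any member.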

How the results depend on the processing

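No called fold change of a member reversed under any alternative or with any 1 sample left out. Of 960 fold changes with 1 sample left out, 943 kept their call or lack of one. The 4 calls lower beside macrophages, against cell-free cores, held under every alternative but the macrophage covariate, where the count of members called was 2. The count of 1 for WT cores beside fibroblasts, against cell-free cores, was 0 with all core groups in 1 fit and 0 with the macrophage covariate, and 0 to 1 with 1 sample left out. For cores labelled KO, beside fibroblasts against cell-free, the count of 0 became 2 with DESeq2, 2 with the unadjusted p, 2 with all groups in 1 fit, 1 with the run code block, 1 with the macrophage covariate and 0 to 1 with 1 sample left out. With the replicate block, which takes those samples as pairs, it was 2. Among the comparisons whose numbers were taken to pair the samples, the replicate block also changed Spry1 beside macrophages (5 members called in place of 4) and Dusp4 and Dusp5 between KO hydrogels and KO cores (6 in place of 4), and no other call. In the 3 comparisons whose numbers were not taken to pair the samples, the block left the counts of members called at 1, 0 and 0. With no fold threshold the count between KO and WT hydrogels was 2 (404 of 15227 genes) and that between KO and WT cores beside fibroblasts 3 (1428 of 16088 genes), in place of 0. With 1 sample left out these 2 counts were 0 to 1 and 0 to 1, and that between KO hydrogels and KO cores 4 to 7. Over all genes, the count called between cores labelled KO beside fibroblasts and cell-free ones was 69, and 502 with DESeq2, 408 with the replicate block and 328 with all groups in 1 fit, and that of WT cores beside fibroblasts against cell-free ones was 423, with 774 by DESeq2, 207 with all groups in 1 fit and 0 with the macrophage covariate. Between KO and WT hydrogels it was 115, and 212 with the replicate block, 296 with no filter and 304 without KO hydrogel replicate 5, between KO and WT cores beside fibroblasts 392, and 668 with no filter, and for cores beside macrophages against cell-free ones 757, with 1149 by DESeq2 and 121 with the macrophage covariate. Beyond these counts the cause was not tested. Etv4 and Dusp5 had under 10 CPM in every sample, which limits the precision of their fold changes.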
